A study of Rattus norvegicus with 8 samples.

Results

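The genes described are 10 transcripts of the ATF4 stress response, picked by name from a deposited table of 13613 genes: the transcription factor genes Atf4, Ddit3 and Atf3, the regulator genes Trib3, Chac1, Sesn2 and Nupr1, the amino acid enzyme gene Asns, and the hormone genes Fgf21 and Gdf15. All 10 were listed and all 10 passed the filter on low reads, which left 12383 genes. They were chosen with the difference between the study's groups already known, so their values are a description and carry no test of that difference. The libraries came from rat nucleus pulposus cells in primary culture, grown out of explants and expanded in serum-containing medium; this tissue is the soft centre of the intervertebral disc. The 4 control libraries carried the vector PLKO1 and the 4 knockdown libraries a short hairpin RNA against TonEBP, the tonicity-responsive factor encoded by Nfat5. Both groups had 110 mM NaCl added to the medium for 8 h, so no culture without added salt is compared here. The titles give each library a Set number from 1 to 4, once in each group, but do not say whether a Set is an animal, a culture or a day.

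ATF4 belongs to the integrated stress response. Kinases that sense unfolded protein in the endoplasmic reticulum, lack of amino acids, viral RNA or lack of heme phosphorylate the translation factor eIF2alpha, which slows most protein synthesis and lets the Atf4 transcript be translated through its upstream reading frames. The factor then pairs with C/EBP proteins on composite DNA elements and switches on genes for amino acid supply, for feedback and, under long stress, for cell death. Because ATF4 is largely set by translation and by protein turnover, the level of its transcript does not measure the protein. Disc cells meet high osmolarity, low oxygen and scarce nutrients, conditions in which this response is commonly studied.

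The libraries held between 9567488 and 15782202 reads on the listed genes. Nfat5, the target of the hairpin, was lower in the knockdown library of all 4 Sets, at 65.0%, 37.4%, 27.4% and 43.9% of the control in Sets 1 to 4, on normalized counts. Set 1 therefore had the most Nfat5 left. The groups overlapped for Nfat5, as knockdown library 1, at 1094 normalized counts, lay above control library 4, at 942. Among the markers of the nucleus pulposus, 8 of 14 were listed. Their summed level ran from 2020 to 12575 normalized counts in the control libraries and from 1924 to 17569.5 in knockdown libraries, with the high values in Set 1 of each group, mostly from Car3. T, Krt19, Acan, Noto and Shh, which include the defining notochordal genes, were not among the listed genes, and the cartilage collagen gene Col2a1 had means of 3.16 and 3.15 normalized counts. Fibroblast markers were abundant, and 10 of 11 were listed. Their summed normalized counts were 62756, 113055, 29799 and 151340 in control libraries 1 to 4 and 91541, 158843, 31515 and 187628 in knockdown libraries 1 to 4, so the sum was higher in the knockdown of every Set. The authors' deposited table calls 2 of these genes higher, the collagen genes Col1a1 (log2 1.24) and Col1a2 (0.88), and 0 lower, and the median log2 difference of the list was -0.02. These sums and collagen genes moved in the same direction as the mean of 9 of the 10 stress genes described below, but the list as a whole did not. It had 5 genes above 0 and 5 below, and its median log2 difference was 0.28, 0.18, -0.37 and 0.21 in Sets 1 to 4. In Set 3 Col1a1 rose from 4196 to 11516 normalized counts while Dcn fell from 3481 to 1616. Of the leukocyte markers 6 of 11 were listed, summing to between 545 and 763 in control and between 409 and 642 in knockdown libraries, and Ptprc was not among them. Cd68, a macrophage lysosomal gene, was the 1 leukocyte marker lower in the authors' deposited table (log2 -0.94). Of the endothelial markers 2 of 7 were listed, at sums of 8.70 to 45.6 and of 12.9 to 20.7. The part of cell makeup in the results below was not tested. In bulk cultures a change in the share of a cell type and a change in RNA per cell cannot be told apart.

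Fgf21, Chac1, Trib3 and Sesn2 were higher in every knockdown library than in any control library. Gdf15 was higher in the knockdown of all 4 Sets, but its groups overlapped. Atf4, Ddit3, Atf3 and Asns were higher in 3 Sets and lower in Set 1, where Ddit3 held 75.6% of its control and the others between 94.1% and 96.4%, and Nupr1 went both ways. Thus 5 of 10 genes were higher in all 4 Sets, against 17% of all genes tested, and 4 of 10 did not overlap in the upward direction, against 2.9% (downward, 0 of 10 against 3.44%). Because the genes were picked on this contrast, nothing is read from these shares. The authors' deposited table calls the same 4 non-overlapping genes higher at an adjusted p under 0.05 and 0 lower, where it calls 4.09% of its genes higher and 5.22% lower. Limma on log2(normalized count + 1) without the Set called 1 gene of 12383 (0% higher and 0.00808% lower) and it was none of the 10. At an unadjusted p under 0.05 limma listed 1176 genes (9.50%), and with the Set as a block 2856 (23.1%). DESeq2 with the Set as a block called 4.31% of genes higher and 5.45% lower, the same 4 stress genes among them. With the same block limma called 0 of 12383 genes, edgeR 0 and limma-voom 15, and 0 of the 10 were among them. DESeq2 without the block called 0.597% of genes higher and 0.833% lower, with Chac1 and Fgf21 among the higher ones.

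**Figure D1:**
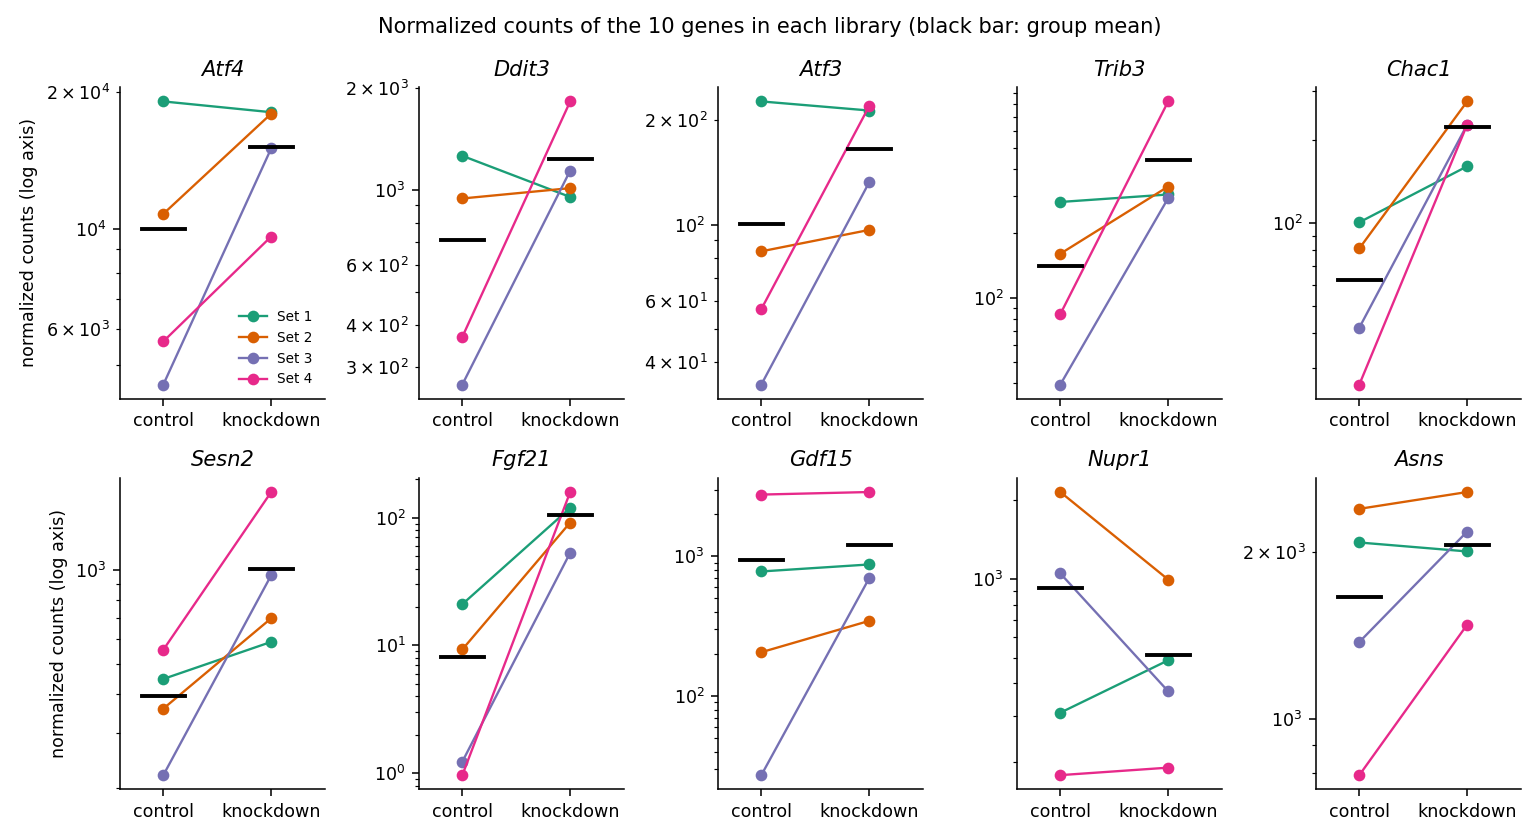
Normalized counts (log axis) of each of the 10 genes in control and knockdown libraries; each line joins the 2 libraries of a Set and the black bars are group means (n = 4). The lines of Fgf21, Chac1, Trib3 and Sesn2 slope upward in all 4 Sets, those of Set 1 stay close to level for Atf4, Atf3 and Asns, and the lines of Nupr1 cross.

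Atf4 (ENSRNOG00000017801), the central transcription factor of the response, measured 19056, 10774, 4534 and 5642 normalized counts in control libraries 1 to 4. In knockdown libraries 1 to 4 it measured 18042, 17907, 15017 and 9605. The control libraries of Sets 3 and 4 stood low, and knockdown library 4 lay below the control library of Sets 1 and 2, so the groups overlapped. The means were 10002 ± 6620.5 and 15143 ± 3947 (SD, n = 4), and the mean log2 difference, knockdown minus control, was 0.79. Its standard error, from limma on log2(normalized count + 1), was 0.45 without the Set and 0.28 with it as a block. Here and below these standard errors are moderated, with the variance of each gene drawn toward a trend over all genes. They are thus not the gene's own spread between Sets. For Atf4 the SD of the 4 Set differences was 0.74. Within Sets 1 to 4 the knockdown held 94.7%, 166%, 331% and 170% of its control, and without control library 3 the mean log2 difference was 0.48. The authors' deposited table gives log2 0.64 at an adjusted p of 0.0646.

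Ddit3 (ENSRNOG00000006789) encodes CHOP, a C/EBP-family factor that promotes cell death under lasting stress. It measured 1261, 943, 266 and 368 normalized counts in control libraries 1 to 4 and 953, 1012, 1140.1 and 1825 in knockdown libraries 1 to 4. The knockdown held 75.6% of its control in Set 1 and 107% in Set 2, while in Sets 3 and 4 it held 4.28 and 4.96 times its control. The mean log2 difference was 1.02, with a standard error of 0.49 without the Set and 0.47 with it, and it was 0.65 without control library 3. Atf3 (ENSRNOG00000003745), an ATF/CREB-family factor induced early by many stresses, measured 227, 83.7, 34.5 and 57.0 normalized counts in the control libraries and 214, 96.5, 132 and 220 in knockdown libraries 1 to 4. It stood at 94.1% and 115% of its control in Sets 1 and 2 and at ratios of 3.84 and 3.86 in Sets 3 and 4. Its mean log2 difference was 0.99 with a standard error of 0.55 without the Set and 0.40 with it, and it was 0.60 without control library 3 and 1.496 without control library 1. The authors' deposited table lists log2 fold changes of 0.64 for Ddit3 and 0.65 for Atf3, with adjusted p values of 0.177 and 0.158.

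Trib3 (ENSRNOG00000007319) encodes a pseudokinase that is induced by ATF4 and CHOP and feeds back on ATF4. It measured 280.4, 161, 39.4 and 84.1 normalized counts in control libraries 1 to 4 and 304, 331, 292 and 826 in knockdown libraries 1 to 4. The lowest knockdown library, at 292, lay just above the highest control library, at 280.4, so the separation of the groups was narrow. The ratio of knockdown to control was 1.08, 2.06, 7.41 and 9.82 in Sets 1 to 4, and the mean log2 difference was 1.82 with a standard error of 0.60 without the Set and 0.52 with it. The mean log2 difference was 1.48 without both libraries of Set 3 and 1.34 without those of Set 4.

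Chac1 (ENSRNOG00000014387) encodes an enzyme that breaks down glutathione. It measured 101, 81.1, 41.9 and 26.1 normalized counts in the control libraries and 161, 276, 227 and 227 in knockdown libraries 1 to 4. All knockdown libraries stood above all control libraries, with a wider gap than for Trib3. The ratios were 1.59, 3.40, 5.42 and 8.71 in Sets 1 to 4, and the mean log2 difference was 1.98 with a standard error of 0.42 without the Set and 0.38 with it. Sesn2 (ENSRNOG00000042785) encodes a leucine sensor that restrains the growth kinase complex mTORC1. It measured 447, 359, 219 and 555 normalized counts in the control libraries and 588, 699.9, 962 and 1781 in knockdown libraries 1 to 4. The groups did not overlap, although knockdown library 1, at 588, was close to control library 4, at 555. The mean log2 difference of Sesn2 was 1.29 with a standard error of 0.39 without the Set and 0.28 with it. In the authors' deposited table the log2 fold changes are 1.08 for Trib3, 1.39 for Chac1 and 1.06 for Sesn2.

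Asns (ENSRNOG00000007546), which encodes asparagine synthetase, is a classical amino acid response gene. It measured 2078, 2389, 1376 and 793 normalized counts in the control libraries and 2003, 2561, 2175 and 1479 in knockdown libraries 1 to 4. The knockdown held 96.4%, 107%, 158% and 186% of its control in Sets 1 to 4. The mean log2 difference was 0.40, with a standard error of 0.34 without the Set and 0.18 with it, and it was 0.09 without control library 4 and 0.62 without control library 2. The authors' deposited table gives Asns log2 0.35 at an adjusted p of 0.268.

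Fgf21 (ENSRNOG00000020990) encodes a hormone that the liver releases under metabolic stress and that other cells make when ATF4 is active. It was a rare transcript in control cells, with 24, 7, 1 and 1 reads in control libraries 1 to 4, against 144, 113, 55 and 148 reads in knockdown libraries 1 to 4. Normalized counts were 21.0, 9.30, 1.23 and 0.966 in control and 119, 91.6, 53.2 and 159 in knockdown libraries. All knockdown libraries stood above all control libraries, and the difference was also present in Set 1. The ratio in Set 1 was 5.67, with an exact 95% interval of 3.66 to 9.14, and in Set 2 it was 9.85 (4.63 to 25.1). In Sets 3 and 4, each with 1 control read, the ratios were 43.2 (7.43 to 1735) and 164 (29.0 to 6532). These intervals are Clopper-Pearson bounds and cover counting error alone, so the sizes in Sets 3 and 4 are poorly determined. The mean log2 difference on the log2(normalized count + 1) scale was 4.14 with a standard error of 0.81 without the Set and 0.63 with it. With a pseudocount of 8 it was 2.90, so its size depends on the offset. On recovered reads edgeR gave 3.65 without the block and 3.88 with it, and DESeq2 gave 3.68 and 4.19. A log2 fold change of 1.80 stands in the authors' deposited table, and how that value was computed is not stated.

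Gdf15 (ENSRNOG00000019661) encodes a circulating TGF-beta family protein that rises in tissue stress and acts on the hindbrain to lower appetite. It measured 781, 206, 27.1 and 2775 normalized counts in the control libraries and 876, 345, 698 and 2895 in knockdown libraries 1 to 4. The ratio of knockdown to control was 1.12 in Set 1, 1.68 in Set 2, 25.8 in Set 3 and 1.04 in Set 4. The mean log2 difference of 1.40 thus came mostly from Set 3, and it was 0.32 without both libraries of Set 3 and 0.21 without control library 3 alone. It was 2.42 without control library 4 and 0.83 without knockdown library 4. Its standard error was 1.30 without the Set and 0.74 with it. The ratio of the group means was 1.27, and the authors' deposited table gives a log2 fold change of 0.22 with an adjusted p of 0.755. Of the hormone genes, Fgf21 was thus apart in each Set and Gdf15 mainly in Set 3.

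Nupr1 (ENSRNOG00000019206) encodes a small chromatin-associated stress protein. It measured 309, 2149, 1051 and 179 normalized counts in the control libraries and 490.1, 996, 373 and 191 in knockdown libraries 1 to 4. It was higher in the knockdown of Sets 1 and 4 and lower in that of Sets 2 and 3, at 158%, 46.4%, 35.5% and 107% of control in Sets 1 to 4. It was the gene of the 10 with a mean log2 difference below 0, at -0.46, with a standard error of 0.80 without the Set and 0.36 with it. Without control library 2, the highest of its 8 libraries, the sign turned, to 0.16, and with other single libraries left out the value ran down to -1.04, without control library 4. The authors' deposited table lists log2 -0.41 for Nupr1, at an adjusted p of 0.404.

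ATF4 and its C/EBP partners bind a composite sequence, the C/EBP-ATF response element, so the start-site windows of the genes were searched for it. RefSeq windows of 250 bases before to 50 after the start, on the GRCr8 build, were matched by symbol for 9 of the 10 genes, with 2 windows for Gdf15. Atf3 had none. The letters TGATGNAA, on either strand, were in the windows of 4 genes, Fgf21, Chac1, Nupr1 and Trib3, and in 3.98% of all 33469 windows, or 1.82% of the 9872 windows of tested genes. The 4 windows are shown because they hold this element, 5′ to 3′ on the strand of the gene, with the match in capitals. Fgf21 lies at chr1:105221327-105221626 on the minus strand, Chac1 at chr3:126795881-126796180 on the plus strand, Nupr1 at chr1:190645852-190646151 on the minus strand and Trib3 at chr3:161275484-161275783 on the minus strand.
Fgf21: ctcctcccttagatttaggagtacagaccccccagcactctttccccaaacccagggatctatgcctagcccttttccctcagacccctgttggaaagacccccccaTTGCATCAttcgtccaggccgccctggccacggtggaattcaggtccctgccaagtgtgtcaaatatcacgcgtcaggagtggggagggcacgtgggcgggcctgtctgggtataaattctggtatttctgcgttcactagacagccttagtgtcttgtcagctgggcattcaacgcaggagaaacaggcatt
Chac1: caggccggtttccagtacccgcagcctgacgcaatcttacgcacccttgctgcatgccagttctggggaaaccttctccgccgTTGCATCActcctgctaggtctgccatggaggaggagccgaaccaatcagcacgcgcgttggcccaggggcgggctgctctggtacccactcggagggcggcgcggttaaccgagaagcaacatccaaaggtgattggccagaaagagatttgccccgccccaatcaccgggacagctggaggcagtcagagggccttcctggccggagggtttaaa
Nupr1: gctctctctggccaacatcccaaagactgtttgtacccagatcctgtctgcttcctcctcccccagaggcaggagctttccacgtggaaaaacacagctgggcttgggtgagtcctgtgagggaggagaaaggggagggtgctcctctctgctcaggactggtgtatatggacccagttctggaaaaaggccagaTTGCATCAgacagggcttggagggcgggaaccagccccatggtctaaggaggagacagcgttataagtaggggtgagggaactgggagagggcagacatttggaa
Trib3: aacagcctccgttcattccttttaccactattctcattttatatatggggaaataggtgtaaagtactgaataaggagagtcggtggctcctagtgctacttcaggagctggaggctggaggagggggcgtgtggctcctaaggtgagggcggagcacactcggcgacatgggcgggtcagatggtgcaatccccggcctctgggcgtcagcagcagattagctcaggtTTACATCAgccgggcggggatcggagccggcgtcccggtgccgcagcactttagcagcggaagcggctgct

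All 4 matches read as the reverse complement on the strand of the gene. Fgf21, Chac1 and Nupr1 held the same 8 letters, TTGCATCA, beginning 143, 167 and 55 bases before the start, and Trib3 held TTACATCA, beginning 21 bases before it. Among these genes Fgf21, Chac1 and Trib3 were apart between the groups, and Nupr1 went both ways between Sets. Sesn2, which was also apart, and Atf4, Ddit3, Asns and Gdf15 had no match in their windows, which says only that these letters are not in the 300 bases searched. TGGAAA, the core of the element bound by TonEBP, was in the windows of Fgf21, Chac1 and Nupr1 on either strand and in 22.7% of all windows. It began 159 bases before the start in Fgf21, 242 in Chac1, and 174, 166 and 70 in Nupr1, and it overlapped no C/EBP-ATF match. The cyclic AMP response element TGACGTCA, in 1.83% of all windows, and the ER stress element, in 0.0657%, were in the windows of 0 of these genes. A match is a description of sequence and not a measured binding site.

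The genes varied most among the control cultures. Over the 4 control libraries the ratio of the highest to the lowest library, on normalized count + 1, had a median of 5.57 over the 10 genes, and over the 4 knockdown libraries 2.54. For all genes tested the medians were 1.81 and 1.77. The ratio was wider in control than in knockdown for 9 of the 10 genes, Sesn2 being the exception, and for 52.0% of all genes tested. Ddit3 shows the pattern in plain counts, with control libraries from 266 to 1261 and knockdown libraries from 953 to 1825. Among the control libraries Set 3 was lowest for 6 genes and Set 4 for the other 4, whereas Set 1 was highest for 6. Gdf15 had the widest control range, at a ratio of 98.8, from 27.1 in library 3 to 2775 in library 4. That same control library 4 was the lowest for Chac1, Fgf21, Nupr1 and Asns.

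**Figure D2:**
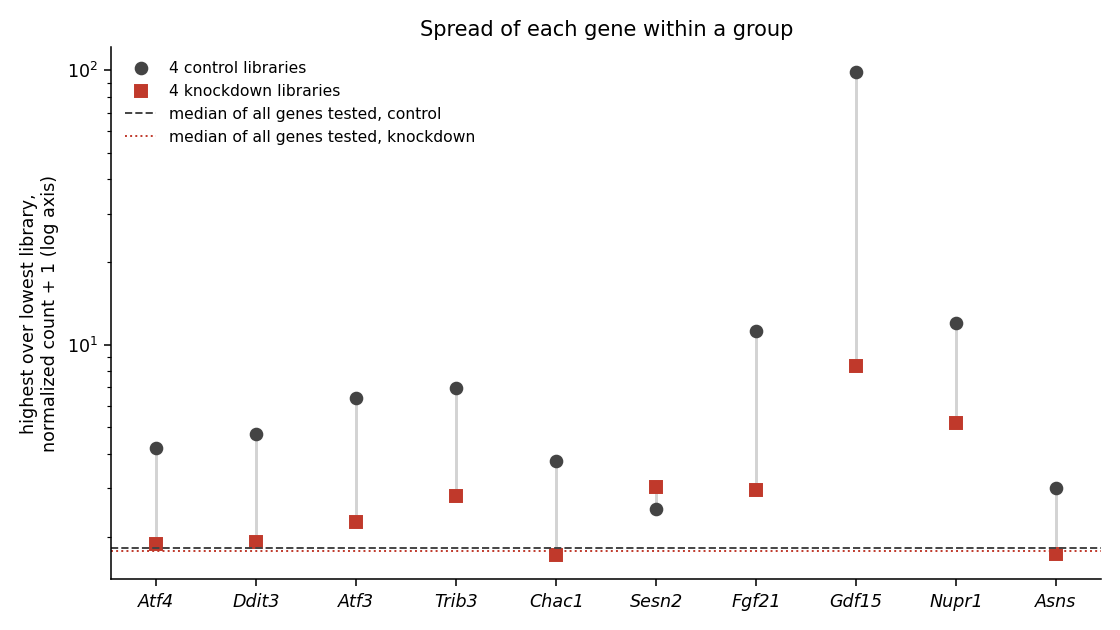
Ratio of the highest to the lowest library of each gene (normalized count + 1, log axis) among the 4 control libraries (circles) and the 4 knockdown libraries (squares), with the medians over 12383 genes as lines. The circle lies above the square for 9 of 10 genes, and the gap is widest for Gdf15 (98.8 and 8.36).

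The size of the difference was not the same in each Set. The median log2 difference over the 10 genes was 0.14 in Set 1, 0.74 in Set 2, 2.11 in Set 3 and 1.81 in Set 4, while over all genes tested it lay between -0.01 and 0.02 in each Set. In Set 1, 6 of 10 genes were higher in the knockdown, in Sets 2 and 3 it was 9, and in Set 4 all 10. Over the Sets the median of the mean differences was 1.16, and 0.00 over all genes tested, and without control library 3 it dropped to 0.62. Set 1, where the control library had high stress transcripts, was also the Set with the most Nfat5 left. It had the highest sum of nucleus pulposus markers too, but that came mostly from Car3. Car3 measured 11125 normalized counts in control library 1 and 15939 in knockdown library 1. In each group Krt8 was highest in Set 3, Cd24 in Set 2 and Cdh2 in Set 4. How these move with the difference was not tested. As a share of the sum of squares of log2(normalized count + 1), the group accounted for 77.4% for Fgf21, 75.0% for Chac1, 57.5% for Sesn2 and 53.0% for Trib3. It was 34.6% or less for each of the other 6, and the median over all genes tested was 10.3%. The Set took the largest part for Nupr1 (82.7%), Asns (71.2%), Gdf15 (66.4%), Atf4 (53.5%) and Atf3 (45.5%). The median Set share was 36.4% over the 10 genes and 64.3% over all genes tested, so of these only Nupr1, Asns and Gdf15 lay above the median of all genes. Ddit3 was the gene with the largest remainder, 46.8%, the part left after Set and group. With 1 library per Set and group, it holds library noise and any change of the group difference between Sets, which cannot be told apart.

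**Figure D3:**
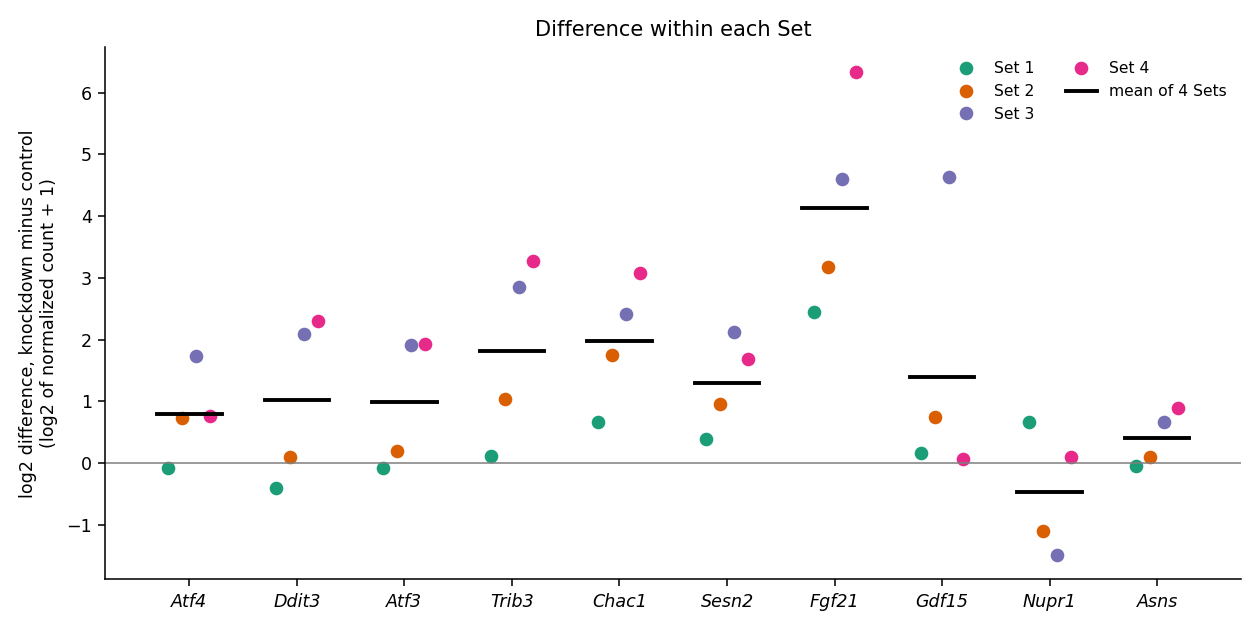
Log2 difference (knockdown minus control, log2 of normalized count + 1) of each gene within Sets 1 to 4, with the mean of the 4 Sets as a bar. The points of Sets 3 and 4 lie above those of Sets 1 and 2 for all genes but Gdf15 and Nupr1, and Gdf15 has a single high point in Set 3 (4.64).

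Genes with a like profile were named by distance. Each gene's log2(normalized count + 1) values over the 8 libraries were centred on their mean, and the root mean square difference from the mean centred profile of the 10 genes was taken for 10535 other genes with a mean of at least 50 normalized counts. The 6 nearest were Calr3 (0.26), Sepw1 (0.32), Dennd2c (0.36), Pdk4 (0.36), Klhl21 (0.37) and Maoa (0.42), in log2 units, against a median of 0.94. Of the 10 genes themselves Ddit3 lay nearest to the common profile, at 0.27, and Gdf15 (1.71), Nupr1 (1.62) and Fgf21 (1.55) farthest. Calr3, a relative of calreticulin, measured 93.7, 78.4, 40.7 and 37.7 normalized counts in the control libraries and 138, 119, 103 and 147 in knockdown libraries 1 to 4. Like Chac1 it was low in control Sets 3 and 4 and apart between the groups. The 6 genes were picked for their likeness over these same 8 libraries. Such a pattern therefore follows from the choice, and nothing is read from it. Sepw1, a selenoprotein gene, measured 167 ± 61.2 in control and 352 ± 85.7 in knockdown libraries, and Maoa, which encodes monoamine oxidase A, 1926 ± 974 and 4876 ± 1900.1 (SD, n = 4).

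The wider pathway was described with 9 lists, which hold 106 genes of the file other than the 10, 103 of them tested. Limma called 0 of them, with 19 at an unadjusted p under 0.05, where 9.50% of all genes had one. With the Set as a block it called 0, with 38 at an unadjusted p under 0.05, against 23.1% of all genes. DESeq2 with the block called 14 higher and 6 lower, against 4.31% and 5.45% of all genes. The authors' deposited table calls 15 higher and 4 lower. Its shares over all genes, 4.09% higher and 5.22% lower, are the background for the count of each list that follows. The median log2 difference of the 103 genes was 0.09, against 0.00 over all genes tested.

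Upstream of ATF4, among the kinases, phosphatase subunits and exchange factor subunits that set eIF2alpha phosphorylation, the authors' deposited table calls 1 of 13 genes higher and 2 lower. Eif2ak3, which encodes the endoplasmic reticulum stress kinase PERK, measured 1058, 1711, 1357 and 919.9 normalized counts in the control libraries and 1795, 2527, 2914 and 1840.4 in knockdown libraries 1 to 4. It was higher in all 4 Sets and the groups did not overlap, and the authors' deposited table lists it at log2 0.81, adjusted p 2.23e-05. Ppp1r15a, which encodes the phosphatase subunit GADD34 that ends the response and is itself induced with it, was lower in all 4 Sets. Its normalized counts were 2342, 1722, 1113 and 2693 in control and 2081, 822, 539.6 and 1095 in knockdown libraries 1 to 4, with overlap, and the log2 fold change in the authors' deposited table is -0.79. Eif2ak2, the interferon-inducible kinase PKR, measured 848 ± 115 and 614 ± 78.1 (SD, n = 4), without overlap, and the authors' deposited table lists it at log2 -0.45. The median log2 difference of the list was 0.02.

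Among bZIP partners and relatives of ATF4, 17 of 18 were listed, and the authors' deposited table calls 3 higher and 0 lower. Jdp2, a dimerization partner of JUN and relative of ATF3, measured 216 ± 35.5 normalized counts in the control libraries and 367 ± 73.8 in knockdown libraries, with no overlap. Atf5, the closest relative of Atf4, measured 1989 ± 696 and 2831 ± 638, and Nfe2l1 3751 ± 781 and 4926 ± 828 (SD, n = 4), both higher in all 4 Sets and both with overlap. The log2 fold changes in the authors' deposited table are 0.70, 0.50 and 0.39. The median log2 difference of the list was -0.06. Of the family relatives of the 10 genes, 8 of 12 were listed, and 7 had a mean difference above 0 (median 0.25). Jdp2 and Atf5 were the 2 called.

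Other stress-signalling targets of ATF4 had 11 of 15 genes above 0 and a median log2 difference of 0.52. The authors' deposited table calls 6 higher and 1 lower. Vldlr, a lipoprotein receptor gene, measured 505, 497, 780.0 and 80.2 normalized counts in the control libraries and 861, 1340, 1787 and 1216 in knockdown libraries 1 to 4. Gpt2, a mitochondrial alanine aminotransferase gene, measured 249.8 ± 107 and 476 ± 104 (SD, n = 4), and like Vldlr its groups did not overlap. Pmaip1, which encodes the pro-apoptotic protein NOXA, measured 219.5 ± 76.1 and 393 ± 74.6 (SD, n = 4). Vegfa, the angiogenic growth factor gene, stood against the list, lower in all 4 Sets at 5261 ± 3858 and 2508 ± 2403 (SD, n = 4). Its log2 fold change in the authors' deposited table is -0.96. Vegfa is also a target of hypoxia factors and other pathways, and their part in its level here was not tested.

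Amino acid supply was described with 3 lists. Of the synthesis genes 12 of 13 were listed, and of 11 tested 6 lay above 0 and 5 below, with a median log2 difference of 0.50 (-0.02, 0.16, 0.24 and 0.91 in Sets 1 to 4). The authors' deposited table calls 2 higher. Aldh1l2, a mitochondrial folate enzyme, measured 286, 524, 283 and 103 normalized counts in the control libraries and 614, 1645, 1458 and 1484 in knockdown libraries 1 to 4, with no overlap. Phgdh, the first enzyme of serine synthesis, measured 406 ± 237 and 844 ± 252 (SD, n = 4). Of 9 transporter genes tested 7 lay above 0 (median 0.20), but the median by Set was 0.09, 0.43, 0.61 and -0.42, and the summed normalized counts of the 10 listed were lower in the knockdown of Sets 2, 3 and 4. The authors' deposited table calls 1 of them higher, Slc1a4, a neutral amino acid carrier, at 1672 ± 553 and 3754 ± 2191 (SD, n = 4). Of 13 tRNA synthetase and related genes 11 lay above 0 (median 0.37; -0.13, 0.30, 0.85 and 0.48 in Sets 1 to 4), and the authors' deposited table calls 1 higher, Cars, at 2121 ± 1194 and 3465 ± 942 (SD, n = 4). Cars was level in Set 1 and highest against control in Set 3, at log2 differences of -0.02 and 1.71.

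Targets of ATF6 and XBP1, the other branches of the unfolded protein response, lay on the opposite side. Of 15 chaperone and folding genes 13 had a mean difference below 0 and 2 above, with a median log2 difference of -0.34, and the median was -0.35 with TMM factors. By Set the median was 0.03, -0.68, -0.31 and -0.49 in Sets 1 to 4. In the knockdown, 6 of the 15 were lower in all 4 Sets and 0 higher, against 16.2% and 17% of all genes tested. The authors' deposited table calls 1 lower, Hsp90b1, the chaperone GRP94, at 22774 ± 5019.7 and 14580.0 ± 2896 normalized counts (SD, n = 4), and 0 higher. The difference between this list and the ATF4 genes was not tested.

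For the hormones' partners, 5 of 8 receptor genes were listed, and Klb, the co-receptor of FGF21, and Gfral, the receptor of GDF15, were not among them. Fgfr3, a fibroblast growth factor receptor gene, measured 133 ± 24.8 in control and 216 ± 65.9 in knockdown libraries (SD, n = 4), with no overlap and a log2 fold change of 0.62 in the authors' deposited table. It was the 1 gene of the list called there.

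**Figure D4:**
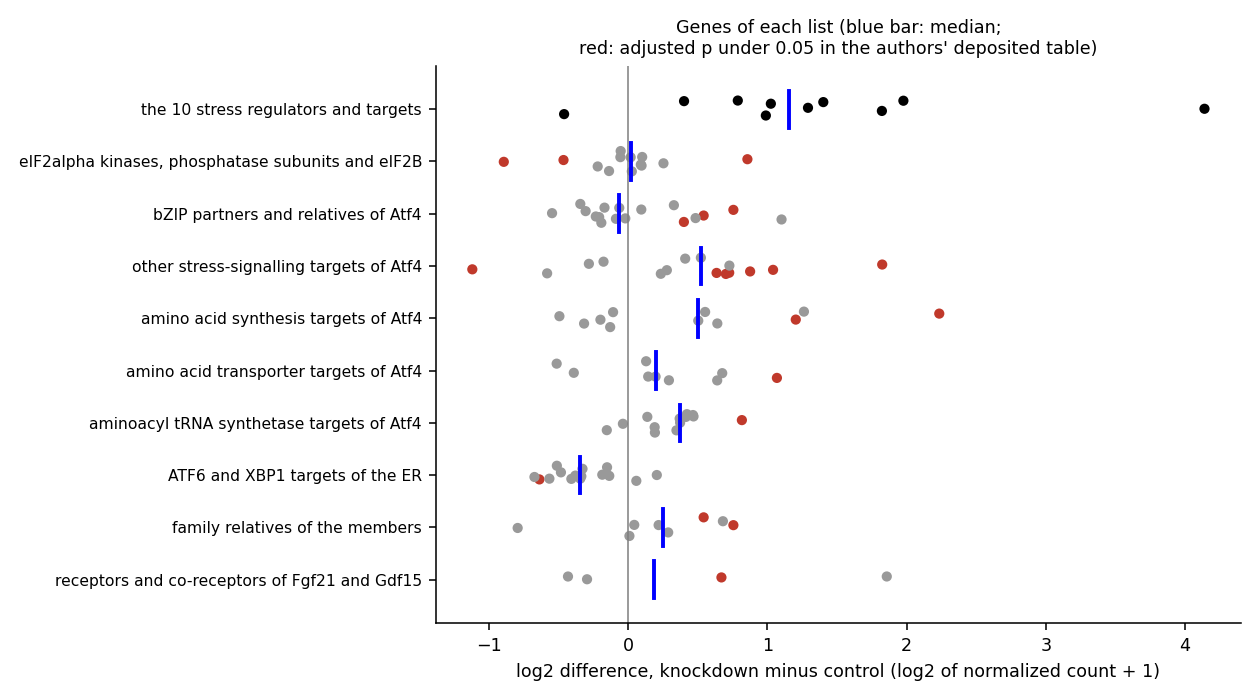
Mean log2 difference (knockdown minus control, log2 of normalized count + 1) of the 10 stress genes and of the tested genes of each pathway list, with the median as a bar and genes called in the authors' deposited table in red. Of the targets of ATF6 and XBP1, 13 of 15 sit left of 0 (median -0.34), and the 10 genes right of it, except Nupr1.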

How the data were processed

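RNA was sequenced as single reads of 50 cycles, per the labels' protocols. The submitters' processing notes name Novoalign 2.08.01, DESeq2 1.10.1 and the build rn5; no source used here gives their roles, the annotation, the read counter or its strand setting. The signal values are normalized counts that the authors deposited, one column per library. Each value was a whole multiple of its library's smallest, within 0.001 reads for 100% of values, so reads could be recovered. The log2 fold changes and the adjusted p-values of the authors' deposited table are the authors' own; no adjustment method is stated, and 1362 genes have no adjusted p.

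Reads shared with paralogs or overlapping genes could not be checked. Genes were kept by edgeR's filterByExpr. The test across genes was limma 3.58.1 with a trend on log2(value + 1), group only, 2-sided, with Benjamini-Hochberg adjustment over all tested genes at 0.05; edgeR 4.0.16 and DESeq2 1.42.0 ran on recovered reads in R 4.3.3. For genes with few reads the limma difference shrinks as the pseudocount grows. For Fgf21 it was 4.36, 4.14 and 2.90 with pseudocounts of 0.5, 1 and 8. The fits were also run on simulated data that held no Set effect, so that run cannot tell how they behave where Sets differ. Nothing says that the libraries came from separate animals, so the p-values of the fits run here speak only of these libraries. They set the group difference against the spread between libraries, or, with the block, against the spread left after Set and group. Same-numbered libraries deviated together, with correlations of their deviations from the group means of 0.805, 0.749, 0.681 and 0.699 for Sets 1 to 4, so the numbers pair the libraries. The group-only limma test did not use this pairing, and the fits with the block did. Named genes are the 10 genes, Nfat5, up to 4 genes per list with the largest fold change among those called in the authors' deposited table, and the 6 genes nearest in profile. Members and lists were chosen with earlier results of these data known.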

Additional observations from a re-analysis of the deposited data

Results flagged for a closer look

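Of 20 groups of 4 libraries examined for the 10 genes, 1 held a library far from the others: Trib3 in knockdown library 4, at 826 normalized counts, where the other knockdown libraries lay between 292 and 331. Its gap to the nearest library was 0.927 of the range of the group, above Dixon's critical value for 4 samples. Chance alone gives about 1 such group in 20. Knockdown library 4 was also the highest knockdown library for Ddit3, Atf3, Sesn2, Fgf21 and Gdf15.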

How the results depend on the processing

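Limma called 1 gene over the whole table, and also 1 with TMM factors, either other pseudocount, no filter or edgeR without the block. With the replicate block limma called 0 and edgeR 0, limma-voom 15 and DESeq2 1174, and DESeq2 without the block called 163. With any 1 library left out the count was 0, and without both libraries of any of Sets 1 to 4 it was 0. Of the genes of the pathway lists limma called 0, DESeq2 without the block 1 and DESeq2 with the block 20. The count of stress genes higher in every Set was 5. With a library left out it was between 5 and 9, and it was 9 without both libraries of Set 1. Leaving out a library removes its Set from the count, so fewer Sets have to be higher. The share of all genes under that easier condition is not given. The median log2 difference of the 10 genes stayed between 0.62 and 1.55 with libraries or Sets left out. Of 230 values of single genes under the alternatives, 229 kept their sign and moved by less than the SD between Sets, and 1 changed sign, Nupr1, which ran from -1.04 without control library 4 to 0.16 without control library 2. DESeq2 without the block called 2 of the 10 genes, Chac1 and Fgf21, and with the replicate block 4. The search of promoters gave 4 genes also with the upstream bases alone. Depth limits Fgf21 in control cells, where 2 libraries held 1 read each.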
